A study of Mus musculus with 15 samples.

Results

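The comparison set macrophages exposed to riebeckite beside macrophages exposed to tremolite, with each mineral in a fibrous and a fragment form. Its members are 12 of the series' 15 libraries, 6 per mineral. For each gene, the riebeckite minus tremolite difference was taken within asbestos and within fragments on log2(FPKM + 1), where FPKM is a fragment count scaled by transcript length and library size, and the mean of both differences was tested. The description centres on genes with the same sign in both habits, which were 7032 of 10616 genes tested (66.24%).

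The cells were MPI cells, non-transformed female mouse macrophages of the C57BL6/J strain from fetal liver that keep dividing when given the growth factor GM-CSF and that stand in for alveolar macrophages in the laboratory. They form a single cultured line, so no other lung cell is present by design, and all groups were kept in the same GM-CSF medium. Exposure lasted 24 h and was set by particle surface area, which required unequal masses of 9 µg/cm2 of riebeckite asbestos, 40 µg/cm2 of riebeckite cleavage fragments, 5 µg/cm2 of tremolite asbestos and 60 µg/cm2 of tremolite cleavage fragments. Each of these groups and the untreated cells held 3 libraries. Mineral, mass and any other property of the particle lots cannot be told apart in this design.

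Amphiboles are chain silicates that grow either as thin flexible fibres, the asbestiform habit, or as blocky crystals that break into cleavage fragments. Riebeckite is rich in sodium and iron, and its asbestiform variety is crocidolite, whereas tremolite is a calcium and magnesium amphibole. Macrophages engulf inhaled particles, and iron at a mineral surface can take part in reactions that generate oxidants.

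Particle libraries summed to between 257601 and 273570 FPKM, the read depth behind them is unknown, and Spearman's rho across genes within groups was 0.988 to 0.992. Markers of the labelled cell were present in every library, among them Siglecf (9.50 to 58.4 FPKM), Pparg (71.0 to 104), Marco (1019 to 1352) and Csf2ra (171 to 205). Ly6g, Zbtb46, Epcam, Col1a1, Pecam1 and Cd3e, which define neutrophils, dendritic cells, epithelium, fibroblasts, endothelium and T cells, were not among the listed genes. The libraries numbered 2 were the highest of both riebeckite groups in interferon genes. In riebeckite asbestos all libraries were spread out (461, 629 and 276 FPKM summed), and library 2 stood alone only in fragments (293, 516 and 267). The differences of named interferon genes and the count called lower are given with and without these libraries. Whether the libraries of a group stem from independent cultures is not stated in the labels, so the spread behind each p-value is that between these samples and may be technical.

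Riebeckite and tremolite left many genes at different levels, mostly by small amounts. Of 10616 genes, 1675 were higher and 1596 lower with riebeckite (limma, adjusted p under 0.05), or 15.8% and 15% of genes tested. The median absolute difference of these 3271 genes was 0.19 on the log2 scale, and 31 genes differed by at least 1, 16 of them higher. At an unadjusted p under 0.05 limma gave 4384 genes. The median difference over all genes tested was -0.0017.

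The direction was mostly shared between habits, and the size was often larger in the asbestos comparison. Of the called genes 3149 (96.27%) had 1 sign in both habits, a share that the averaging itself favours. The comparisons within asbestos and within fragments share no library, and each was tested on its own. Asbestos gave 1645 higher (15.5%) and 1171 lower genes (11%), 26.5% in all, fragments gave 564 (5.31%) and 638 (6.01%), 11.3% in all, and 788 genes (7.42%) were called with 1 sign in both, 422 higher (3.98%) and 366 lower (3.45%). Only 26 genes (0.245%) were called with opposite signs. Across genes the differences of both habits had a Pearson r of 0.544 and a Spearman rho of 0.492, given as a description over genes that share libraries within each habit. The absolute difference was larger in asbestos than in fragments for 2315 of the called genes (70.8%), with medians of 0.23 and 0.15. Levels in riebeckite and tremolite libraries did not overlap within either habit for 843 genes higher (7.94%) and 854 genes lower (8.04%) with riebeckite, 16% of genes tested. At the threshold, As3mt was the last gene called (0.21) and Ndufa2 the first that was not (0.22).

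**Figure D1:**
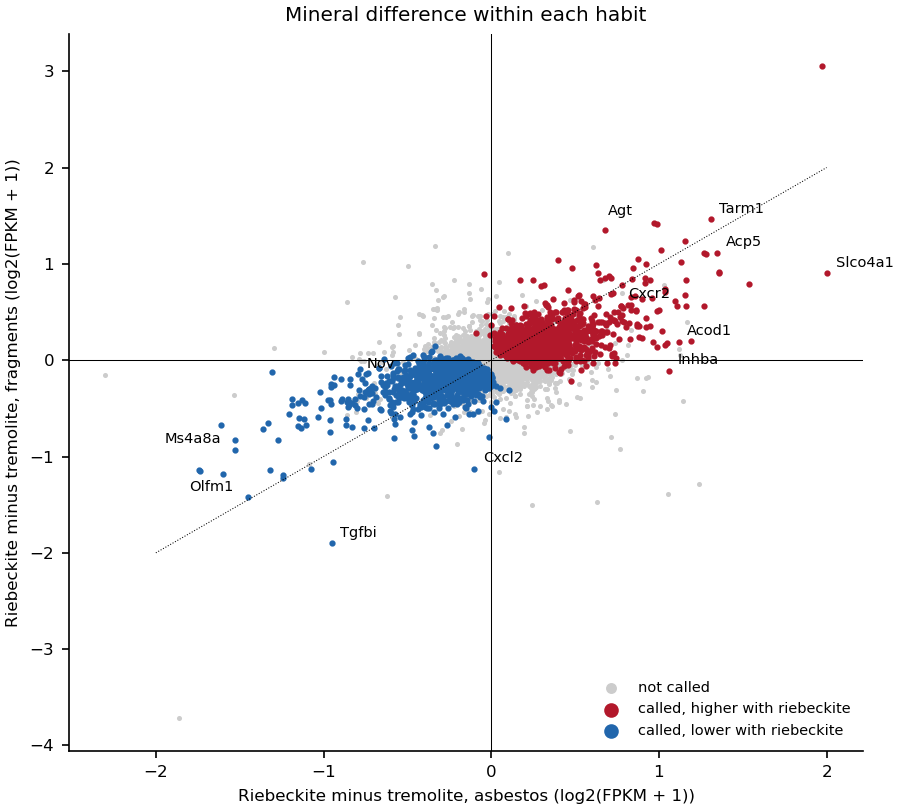
Each point is 1 of 10616 genes, with the riebeckite minus tremolite difference in log2(FPKM + 1) for asbestos on the horizontal axis and for fragments on the vertical axis. Red and blue mark genes called higher and lower in the mean of both, grey the others, and the dotted line marks equal differences. Slco4a1 and Acp5 lie in the upper right and Olfm1 and Tgfbi in the lower left, whereas Inhba and Cxcl2 lie close to an axis.

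Most called genes with 1 sign moved away from untreated cells with both minerals, and further with riebeckite. Among 1594 higher genes, 898 (56.3%) lay above untreated cells with all 4 particles and highest with riebeckite in each habit. Among 1555 lower genes, 949 (61%) lay below untreated cells with all 4 and lowest with riebeckite. Riebeckite and tremolite lay on opposite sides of untreated cells for 284 higher genes (17.8%) and 209 lower genes (13.4%). For 106 higher genes (6.65%) it was tremolite that lay further away, below untreated cells, and for 73 lower genes (4.69%) above them. The order of riebeckite and tremolite follows from how these genes were selected, and only their place against untreated cells was free. These positions describe group means, and the untreated libraries are shared by all of them.

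The largest separated rises with riebeckite were in genes of transport, phosphate and lipid handling and secreted proteins, and some were nearly absent from untreated cells. Slco4a1, an organic anion transporter (chromosome 2, 180456245 to 180474867, GRCm38), stood at 10.3, 6.68 and 7.69 FPKM after riebeckite asbestos and 2.94, 2.57 and 3.47 after riebeckite fragments. Tremolite libraries held 0.993 to 1.44 FPKM and untreated cells 0.783 to 0.890. No riebeckite library overlapped a tremolite library, which the rule that chose the gene required within each habit. The riebeckite asbestos libraries were the highest. The mean difference was 1.45 (SE 0.0897, limma adjusted p = 1.74e-07), 2.00 within asbestos and 0.91 within fragments.

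Acp5, the tartrate-resistant acid phosphatase of osteoclasts and some macrophages, stood at 35.6, 37.2 and 33.2 FPKM after riebeckite asbestos and 28.0, 28.4 and 30.4 after riebeckite fragments. After tremolite asbestos it stood at 13.6, 13.5 and 12.7 FPKM and after tremolite fragments at 14.4, 10.8 and 13.4, against 2.72 to 3.17 in untreated cells. All particles thus lay above untreated cells, and all riebeckite libraries lay above all tremolite libraries, by 1.23 on the log2 scale (SE 0.0591, limma adjusted p = 3.28e-08). A transcript annotated over Acp5 overlaps it, and whether the counting used strand is not given in the sources used here.

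Tarm1, a receptor of the leukocyte receptor family, differed in another way. It stood at 2.03, 2.14 and 2.52 FPKM after riebeckite asbestos and 2.24, 2.34 and 2.34 after riebeckite fragments, near the 1.60, 1.76 and 2.06 of untreated cells. After tremolite it was 0.240, 0.281 and 0.388 FPKM with asbestos and 0.347, 0.234 and 0.0302 with fragments. Both tremolite groups lay below untreated cells, and the mineral difference was 1.39 (SE 0.0673, limma adjusted p = 3.37e-08), with 1.31 within asbestos and 1.47 within fragments.

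Agt, the angiotensinogen gene, stood at 12.2, 11.1 and 9.86 FPKM after riebeckite asbestos and 15.5, 13.9 and 14.1 after riebeckite fragments. Tremolite libraries lay between 4.34 and 5.37 FPKM, overlapping the 4.05 to 5.22 of untreated cells, so the level stood apart in the riebeckite libraries alone (1.20, SE 0.0603, limma adjusted p = 4.30e-08). Pdzk1ip1, a small membrane protein, had much the same form, at 9.81 to 13.02 FPKM with riebeckite, 3.68 to 5.49 with tremolite and 3.18 to 3.66 untreated (1.20).

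The other separated rises were of similar size. Awat1, an acyltransferase that makes wax esters, stood at 39.2 to 49.5 FPKM with riebeckite against 18.1 to 21.1 with tremolite (1.19). Slc6a12, a betaine and GABA transporter, reached 40.1 to 50.4 FPKM with riebeckite asbestos and 24.5 to 27.0 with fragments, against 13.4 to 15.6 with tremolite (1.17). Hp, which encodes the haemoglobin-binding protein haptoglobin, lay between 21.7 and 41.4 FPKM with riebeckite and between 10.2 and 13.4 with tremolite (1.14). Csn2, the milk protein beta-casein, lay at 11.3 to 16.8 against 5.04 to 6.32 FPKM (1.13). Pla2g2d, a secreted phospholipase (1.19), and Il1f9, an IL-1 family cytokine also called IL-36 gamma (1.08), were at most 0.522 and 0.871 FPKM with tremolite and at least 1.63 and 2.23 with riebeckite. Each of these genes was higher in 6 of 6 riebeckite libraries than in any tremolite library of its habit, which the rule that chose them required. A larger mean difference, 2.51 for the histone gene Hist2h2aa1, came from overlapping libraries of a gene with near-identical copies and is uncertain. That gene lies outside the naming rule and was chosen after its value was seen.

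Most of the largest separated falls were in genes of extracellular matrix, cell adhesion and surface receptors. The interferon genes Mx1 and Ifit1bl1, described below, were also among them. Among 27 measured interferon genes the lowest difference was -1.44, and 4 were called lower by at least 1. Olfm1, which encodes the secreted glycoprotein olfactomedin 1 (chromosome 2, 28192992 to 28230736), stood at 1.88, 2.34 and 2.03 FPKM after riebeckite asbestos and 1.92, 2.16 and 1.76 after riebeckite fragments. After tremolite it stood at 7.03, 7.43 and 7.79 FPKM with asbestos and 6.88, 6.72 and 7.02 with fragments, and in untreated cells at 9.30 to 9.61. The groups were far apart, at -1.45 within asbestos and -1.42 within fragments, with a mean of -1.44 (SE 0.0441, limma adjusted p = 9.83e-10).

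Fn1, the fibronectin gene, followed the same order at a lower level. It stood at 1.54, 1.45 and 1.86 FPKM after riebeckite asbestos and 1.806, 2.110 and 2.096 after riebeckite fragments, against 4.70 to 6.40 with tremolite and 4.80 to 6.59 untreated. Tremolite libraries overlapped untreated ones, whereas riebeckite libraries did not (-1.23, SE 0.0702, limma adjusted p = 1.02e-07). Emilin2, another extracellular matrix glycoprotein, stood at 9.27 to 14.97 FPKM with riebeckite and 20.9 to 41.9 with tremolite (-1.23).

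Tgfbi, a TGF-beta-induced matrix protein, was lower with riebeckite, and here the tremolite libraries were the ones far from untreated cells. With riebeckite it stood at 5.52, 6.35 and 5.22 FPKM for asbestos and 4.02, 4.04 and 4.16 for fragments, and with tremolite at 12.1, 12.7 and 10.97 for asbestos and 17.6, 17.0 and 19.2 for fragments. Untreated cells held 3.60 to 3.81 FPKM, so every particle library was above them. The mean difference was -1.42 (SE 0.0475, limma adjusted p = 1.28e-09), and the difference was larger within fragments (-1.90) than within asbestos (-0.95).

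Surface receptors and lipid enzymes made up most of the remaining falls. Ms4a8a, a membrane-spanning protein of the CD20 family, stood at 5.59 to 8.74 FPKM with riebeckite, 16.4 to 21.7 with tremolite and 29.4 to 30.6 untreated (-1.23). Adgre4, an adhesion receptor of macrophages, stood at 0.265 to 0.538, 1.16 to 2.87 and 5.47 to 6.60 FPKM in the same order (-1.04). Clec4a3, a C-type lectin receptor (-0.80), Emb, an adhesion molecule of the immunoglobulin family (-0.85), and Elovl6, a fatty acid elongase (-0.86), were likewise lowest with riebeckite and highest untreated. Ch25h, the enzyme that makes 25-hydroxycholesterol, lay between 1.47 and 2.66 FPKM with riebeckite and between 4.25 and 6.91 with tremolite (-1.11).

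**Figure D2:**
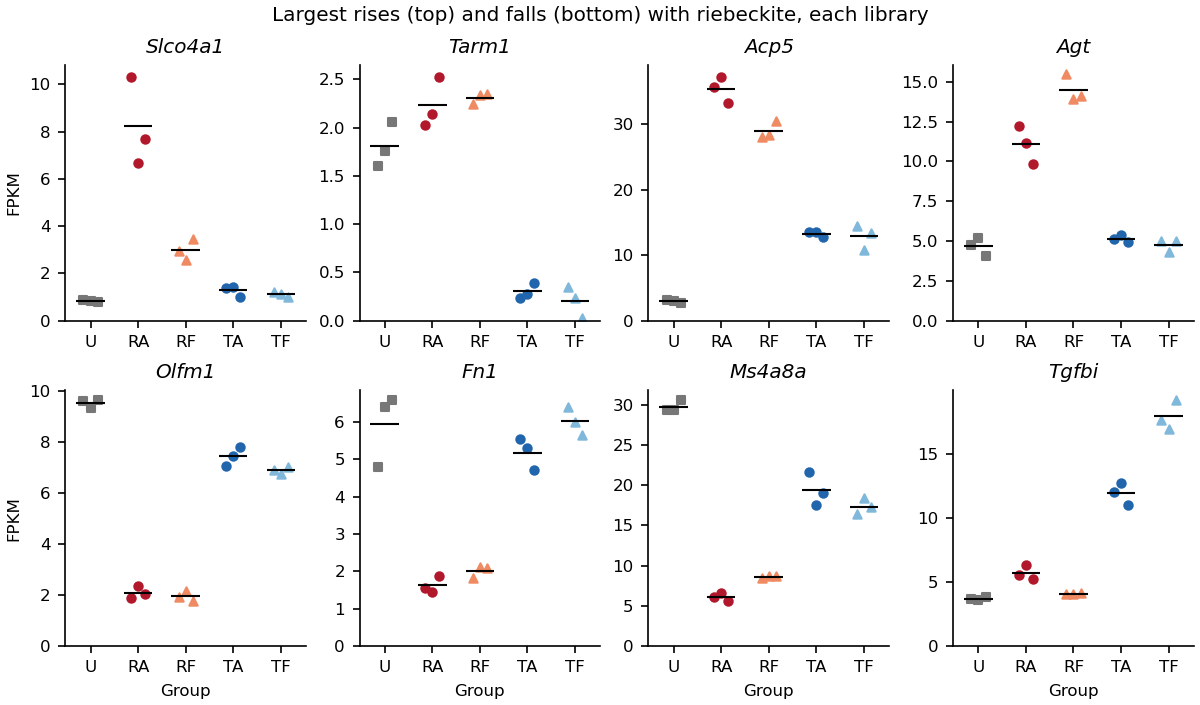
FPKM of 4 genes higher (top row) and 4 genes lower (bottom row) with riebeckite in each library, by group (U untreated, RA and RF riebeckite asbestos and fragments, TA and TF tremolite asbestos and fragments). Points are libraries and lines are means of 3. Riebeckite and tremolite libraries of a habit do not overlap in any panel, a condition by which the genes were chosen. Tremolite lies near untreated cells for Agt and Fn1 but above them for Tgfbi.

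A run of neighbouring genes on the X chromosome was higher with riebeckite in both habits. The genes Bex1, Bex3, Bex4, Tceal5, Tceal7, Tceal8 and Tceal9 encode small proteins related to each other, among them an adaptor of the neurotrophin receptor pathway (Bex3) and relatives of a transcription elongation factor (Tceal). They are the 7 protein-coding genes that the GENCODE M21 annotation places in a stretch of 133 kb from 136138996 to 136271978. All 7 were called in each habit, with mean differences of 0.74 to 1.20 (limma adjusted p between 4.31e-09 and 2.23e-06), where 3.98% of genes tested were higher in each habit. Apart from Tceal5, they lie outside the naming rule and were chosen after their values were seen.

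Of the 7 genes, 3 carry the letters CACGTG, a motif read by bHLH factors such as TFEB, TFE3 and MYC, upstream of the start in a RefSeq promoter of GRCm38.p6. Those upstream stretches are printed 5′ to 3′ in the direction of the gene with the motif in capitals, to show how the motif sits in neighbours that moved together.
Bex4, plus strand, chrX:136138957-136138995: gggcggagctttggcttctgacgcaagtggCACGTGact
Tceal5, minus strand, chrX:136203885-136203929: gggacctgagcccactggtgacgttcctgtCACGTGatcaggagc
Tceal7, plus strand, chrX:136223951-136224016: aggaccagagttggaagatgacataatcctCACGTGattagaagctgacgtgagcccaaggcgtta
The motif reads the same on both strands, and windows ran from 250 bases before to 50 bases after the start. Counting bases after the start as well, 6 of 7 genes of the stretch held it (85.7%), against 12.5% of 8373 tested genes with a promoter and 37.9% of 29 lysosome genes. The longer form TCACGTGA, which contains it, was in 4 of 7 (57.1%), against 2.38% of tested genes and 0.974% of all 32851 promoters. A gene counts if any of its promoters holds the motif, and Tceal5 has 3 promoters. Both motifs were chosen after the promoters were seen, which by itself raises their share in these genes. A match describes letters and no binding. Motifs fixed in the design were also searched. The antioxidant, metal and sterol response motifs were in 3, 2 and 0 of the 7 genes. Over tested genes their shares were 17.3, 40.1 and 0.932%.

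The most abundant members showed the pattern most plainly. Bex1 stood at 184, 233 and 231 FPKM after riebeckite asbestos and 228, 210 and 234 after riebeckite fragments, against 106 to 120 with tremolite asbestos, 119 to 126 with tremolite fragments and 89.8 to 95.9 untreated. Tceal9 stood at 251, 249 and 258 and at 285, 273 and 282 FPKM after the riebeckite forms, and at 146 to 161 with tremolite and 114 to 127 untreated. No riebeckite library of either gene reached down to a tremolite library.

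The lower members moved alike. Bex3 lay between 11.97 and 18.5 FPKM with riebeckite and 5.14 and 7.84 with tremolite, and Bex4 between 7.59 and 8.82 and between 3.99 and 4.54. Tceal5 lay at 3.71 to 5.38 FPKM against 0.928 to 1.71, and Tceal8 at 4.81 to 6.39 against 2.14 to 2.74. Tceal7 was listed at 0 in all untreated libraries, at 0.146 to 0.358 FPKM with tremolite and at 0.824 to 1.38 with riebeckite. For 0 of the 7 genes did the difference itself differ between habits (limma, adjusted p between 0.20 and 0.98). The genes are related in sequence, and Bex1 overlaps Tceal7 on the opposite strand, so the split of reads among them is uncertain.

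**Figure D3:**
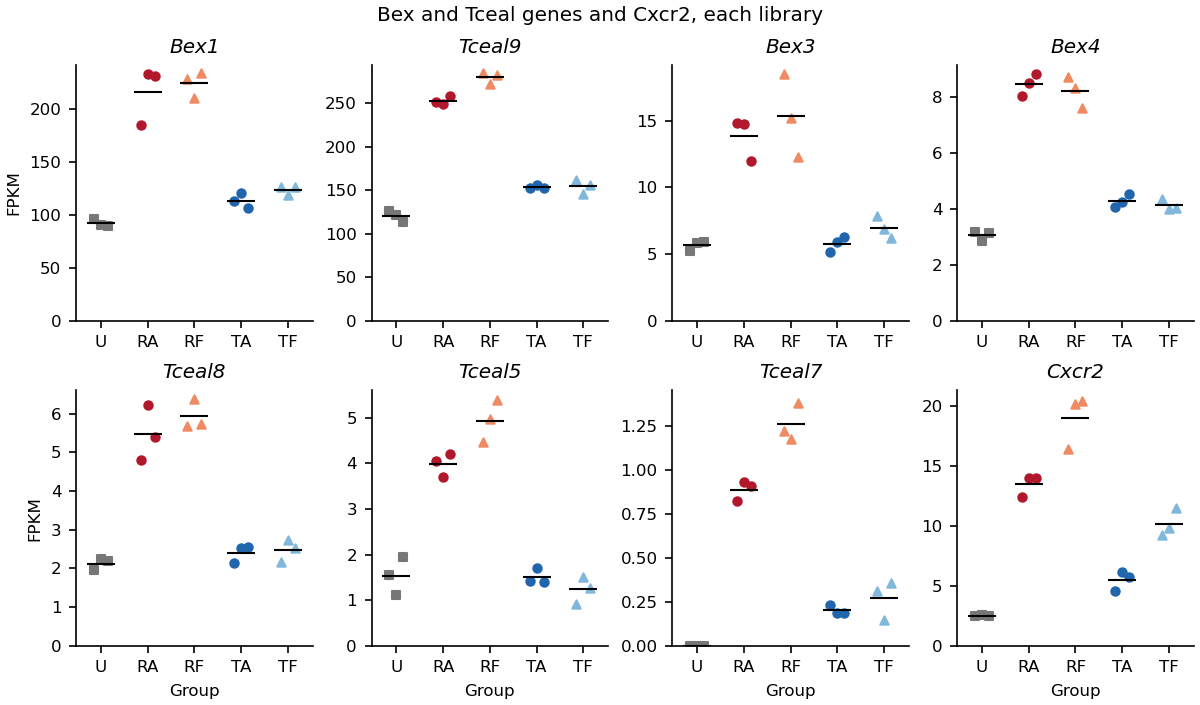
FPKM of the 7 Bex and Tceal genes and of Cxcr2 in each library, by group (U untreated, RA and RF riebeckite asbestos and fragments, TA and TF tremolite asbestos and fragments). Points are libraries and lines are means of 3. In all 8 panels the riebeckite libraries lie above the tremolite libraries of the same habit, and Tceal7 is listed at 0 in untreated cells.

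Genes of metal handling and oxidative stress were more often higher than lower with riebeckite. Of 22 measured iron handling genes 9 were higher and 1 lower (median 0.10), and of 26 Nrf2 oxidative stress genes 14 were higher and 2 lower (median 0.16). Nrf2 is the factor that turns on antioxidant genes. Ferroptosis is a death driven by iron and lipid peroxides, and 7 of 12 genes of its defence and control were higher and 0 lower (0.15). The shares over all genes tested were 15.8% higher and 15% lower. These lists share members, among them Hmox1. With sums of transcripts in place of the deposited gene values, 3 iron handling genes were called higher, and Slc11a1 and Ftl1 were not called.

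Slc48a1, which moves haem out of the lysosome, stood at 68.6 to 75.5 FPKM with riebeckite, 49.9 to 54.7 with tremolite and 50.3 to 52.0 untreated (0.42, SE 0.0252, limma adjusted p = 1.32e-07). Slc11a1, the phagosomal metal pump also called Nramp1, stood at 7.11 to 8.65 FPKM with riebeckite asbestos, 4.77 to 5.28 with fragments and 3.11 to 3.72 with tremolite (0.75). Hmox1, the haem oxygenase that breaks down haem, was at 212, 195 and 201 FPKM after riebeckite asbestos against 139, 134 and 124 after tremolite asbestos. In fragments it was at 190, 176 and 181 against 181, 179 and 168 FPKM, where the libraries overlapped (0.05, limma adjusted p = 0.589). The habits thus gave unlike values for Hmox1, with a tested difference of 0.57 (limma adjusted p = 0.00142).

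Ferritin, the iron store, differed little. Ftl1, its light chain, had a mean difference of 0.35 (limma adjusted p = 0.00846), and its reads can be shared with a near-identical copy. Fth1, its heavy chain and the most abundant gene in every library, had 0.13 (limma adjusted p = 0.0424), and quantile normalization sets the top gene equal across libraries, which leaves 0 there. Txnrd1, the thioredoxin reductase, lay at 44.1 to 52.1 FPKM with riebeckite and 32.8 to 40.0 with tremolite (0.36, limma adjusted p = 2.32e-05). Gsr, the glutathione reductase, went the other way, at 114 to 128 FPKM with riebeckite, 138 to 149 with tremolite and 181 to 189 untreated (-0.24).

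The metallothioneins, small proteins that bind zinc and other metals, were both higher with riebeckite. Mt2 stood at 343, 333 and 354 FPKM after riebeckite asbestos and 503, 445 and 399 after riebeckite fragments, against 250 to 294 with tremolite asbestos, 304 to 324 with tremolite fragments and 188 to 195 untreated (0.42, SE 0.0512, limma adjusted p = 4.78e-05). Mt1 lay at 251 to 273 and 295 to 360 FPKM after the riebeckite forms and at 200 to 221 and 234 to 256 after the tremolite forms (0.35). Fragments gave more than asbestos in each mineral, and riebeckite gave more than tremolite in each habit. Slc39a10, a zinc importer, was lower (-0.22). Of 6 measured genes of the list 3 were higher and 1 lower (66.7% called, against 30.8% of all genes tested). The upstream bases of both metallothioneins on chromosome 8 are printed from RefSeq (GRCm38.p6, plus strand, 5′ to 3′) with the metal response core TGCACNC or TGCGCNC, searched on both strands, in capitals. They show the sequence context of 2 genes that metal is known to switch on. Both stretches stop at the annotated start, so any core after it is not shown.
Mt2, chr8:94172368-94172617: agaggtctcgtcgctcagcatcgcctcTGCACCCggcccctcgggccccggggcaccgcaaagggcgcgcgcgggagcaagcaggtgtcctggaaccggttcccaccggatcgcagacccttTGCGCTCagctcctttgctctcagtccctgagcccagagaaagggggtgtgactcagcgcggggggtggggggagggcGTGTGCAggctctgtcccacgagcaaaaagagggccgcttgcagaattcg
Mt1, chr8:94179036-94179088: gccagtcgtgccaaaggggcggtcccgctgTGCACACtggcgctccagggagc
The core was in 40.1% of tested genes with a promoter, so a match is common.

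Lipid genes that were called were mostly higher with riebeckite. Of 25 measured genes of cholesterol synthesis and uptake 15 were higher and 0 lower (median 0.18), and 11 were called higher in each habit. Among all genes tested 15.8% were higher, 15% lower and 3.98% higher in each habit. Acat2, which joins acetyl-CoA units, lay at 29.2 to 40.4 FPKM with riebeckite, 20.1 to 24.2 with tremolite and 24.1 to 24.8 untreated (0.59, SE 0.0370, limma adjusted p = 1.84e-07). Fdps, the farnesyl diphosphate synthase, lay at 44.2 to 49.9 against 35.4 to 38.6 FPKM (0.32), and Mvd, the mevalonate diphosphate decarboxylase, at 72.1 to 80.4 against 59.9 to 65.7 (0.31). In fatty acid synthesis 8 of 15 genes were higher and 2 lower (median 0.16). Scd1, the stearoyl-CoA desaturase, stood at 108 to 119 FPKM with riebeckite, 78.6 to 86.5 with tremolite and 84.7 to 86.2 untreated (0.44 in each habit, limma adjusted p = 5.10e-08 for the mean). Acaca, the acetyl-CoA carboxylase, had 0.41, and Elovl6 fell against this direction.

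Among 19 genes of LXR signalling and lipid efflux, LXR being a sterol-sensing nuclear receptor, 11 were higher and 3 lower (median 0.14). The share called was 73.7%, against 30.8% of all genes tested. Abca1, the cholesterol efflux pump, stood at 37.4, 32.5 and 32.3 FPKM after riebeckite asbestos, 27.6, 27.7 and 27.5 after riebeckite fragments, 19.3 to 20.7 with tremolite and 11.3 to 12.3 untreated (0.57, SE 0.0356, limma adjusted p = 1.84e-07). Ch25h was the member that fell most. Lpcat3, a phospholipid remodelling enzyme, was at 68.6 to 75.8 against 54.5 to 61.5 FPKM (0.31).

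Lysosomal and matrix genes split by member. Of 40 lysosome genes 22 were higher and 6 lower (70% called, against 30.8% of all genes tested, median 0.10). Besides Acp5, Ctsk, the collagen-degrading cathepsin K, lay at 1760 to 1843 FPKM with riebeckite asbestos, 1389 to 1436 with fragments, 1243 to 1351 with tremolite asbestos and 1052 to 1144 with tremolite fragments (0.44, limma adjusted p = 1.16e-06). Of 15 matrix genes 7 were higher and 4 lower (73.3% called, median 0.06). Spp1, the secreted phosphoprotein osteopontin, lay at 2293 to 2904 FPKM with riebeckite, 1634 to 2038 with tremolite and 631 to 702 untreated (0.51, SE 0.0338), opposite to Fn1, Emilin2 and Tgfbi.

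**Figure D4:**
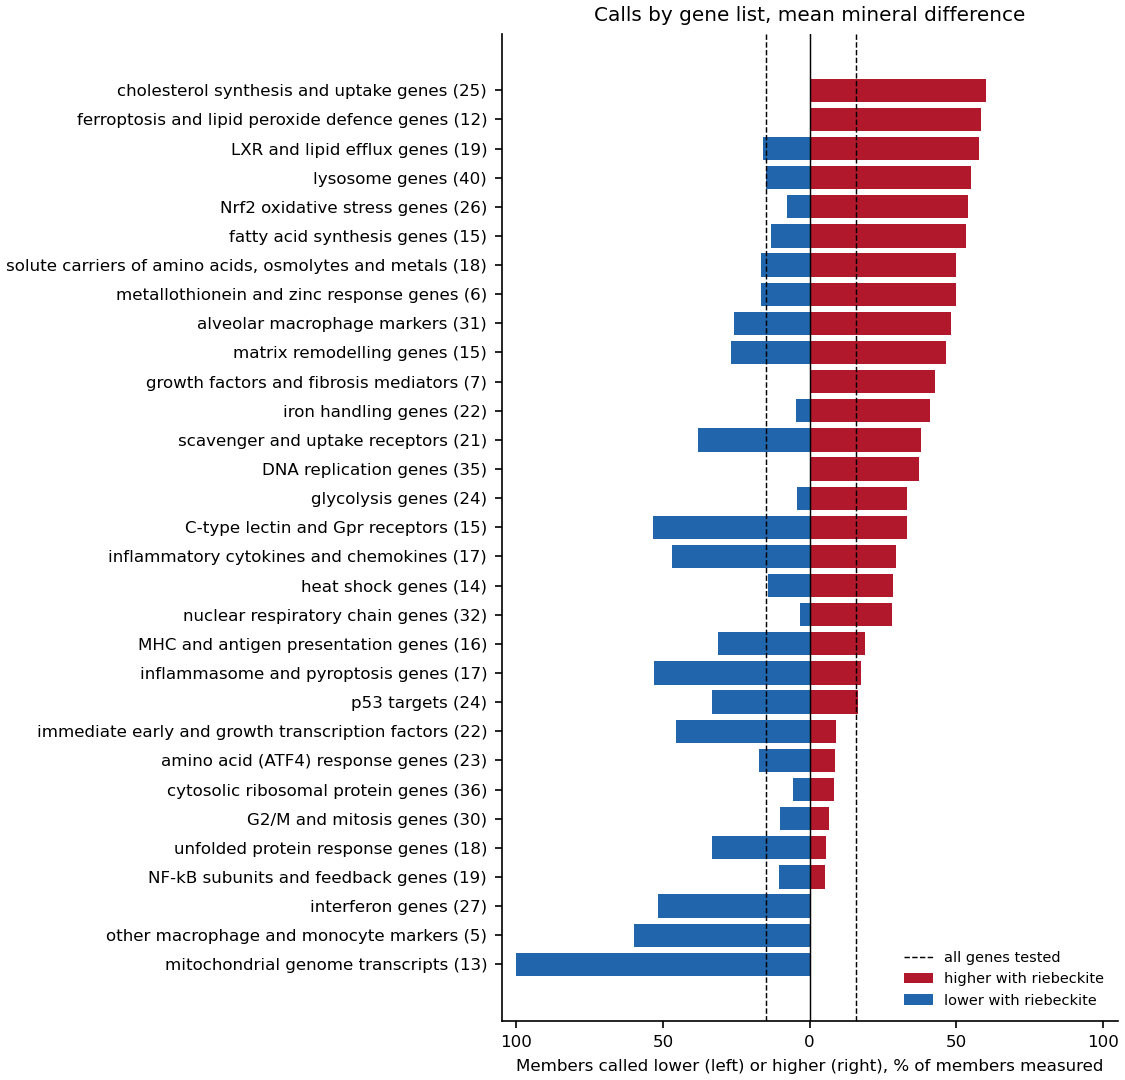
Share of measured members called higher (right, red) or lower (left, blue) in the mean mineral difference, for each list with at least 5 measured members (number in parentheses). Dashed lines mark the shares over all genes tested, 15.8% higher and 15% lower. The cholesterol list (15 of 25) reaches furthest right, followed by ferroptosis (7 of 12), LXR (11 of 19), lysosome (22 of 40), Nrf2 (14 of 26) and fatty acid synthesis genes (8 of 15), and mitochondrial genome transcripts furthest left.

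Markers of the alveolar macrophage did not move as a block. Of 31 measured markers 15 were higher and 8 lower with riebeckite, and 9 and 2 in each habit. Among all genes tested 15.8% were higher and 15% lower, and 3.98% and 3.45% in each habit. Itgax, the integrin CD11c, lay at 55.9 to 69.7 FPKM with riebeckite, 44.9 to 51.8 with tremolite and 36.9 to 37.8 untreated (0.34, limma adjusted p = 2.17e-07). Olr1, a scavenger receptor for oxidized lipoprotein, lay at 272 to 302 against 200 to 240 FPKM (0.39). The lowest difference in the marker list was -0.61. Outside that list, Clec4n, the C-type lectin dectin-2, was lower, at 38.0 to 46.1 against 68.1 to 77.2 FPKM (-0.76, limma adjusted p = 3.00e-08). Of 15 C-type lectin and Gpr receptors 8 were lower and 5 higher (median -0.27).

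A few neutrophil-type genes differed strongly. Cxcr2, a chemokine receptor, stood at 12.4, 14.0 and 14.0 FPKM after riebeckite asbestos and 16.4, 20.2 and 20.4 after riebeckite fragments, against 4.60 to 6.17 and 9.27 to 11.5 after the tremolite forms and 2.45 to 2.61 untreated (1.00, SE 0.0729, limma adjusted p = 7.29e-07). S100a8, a calcium-binding alarmin, lay at 50.6 to 58.5 FPKM with riebeckite and 26.5 to 41.5 with tremolite (0.77). Fpr1, the formyl peptide receptor, was lower, at 108 to 124 against 160 to 190 FPKM (-0.52). Only 4 of 16 neutrophil markers were measured, and their summed level was 181 to 200 FPKM with riebeckite and 203 to 232 with tremolite. In such bulk values fewer cells of a type and less RNA per cell cannot be told apart. Cdh1, E-cadherin, an epithelial marker that these cells express, was lower (-0.38, limma adjusted p = 2.86e-05).

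Inflammatory genes did not share a direction. Of 17 cytokines and chemokines 5 were higher and 8 lower, and for 7 the difference depended on habit. Il18, an inflammasome-processed cytokine, stood at 38.1 to 43.9 FPKM with riebeckite asbestos and 51.2 to 51.7 with fragments, against 62.9 to 70.0 and 66.99 to 68.3 with tremolite and 98.1 to 103 untreated (-0.54, SE 0.0338, limma adjusted p = 2.01e-07). Il1b was higher with riebeckite asbestos (39.3 to 46.5 against 23.8 to 27.0 FPKM) and close in fragments (24.8 to 26.0 against 21.05 to 24.7 FPKM, limma adjusted p = 0.271 there). Ccl17, a chemokine for T cells, was higher in both habits, at 41.4 to 46.3 against 28.7 to 33.5 FPKM (0.48, limma adjusted p = 9.05e-07). Cxcl2, a neutrophil chemokine, was lower mainly within fragments, at 2.02 to 2.72 against 6.04 to 6.93 FPKM (-1.13). Of 17 inflammasome and pyroptosis genes 9 were lower and 3 higher, and for 6 the difference depended on habit. Of 19 NF-kB subunits and feedback genes 2 were lower and 1 higher in the mean (15.8% called, against 30.8% of all genes tested). For 9 of these 19 the difference depended on habit, against 3.93% of all genes tested. The NF-kB list had medians of 0.23 in asbestos and -0.16 in fragments, so its mean hides opposite directions.

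Interferon genes, which answer type I interferon, lay lower with riebeckite, with a wide spread between its libraries. Of 27 measured genes 14 were lower and 0 higher (median -0.61), and 2 were called lower in each habit. Among all genes tested 15% were lower, and 3.45% in each habit. The summed level of the list was 461, 629 and 276 FPKM for riebeckite asbestos and 293, 516 and 267 for its fragments, 610, 628 and 789 for tremolite asbestos and 399, 418 and 475 for its fragments, and 360 to 375 in untreated cells. Library 2 of riebeckite asbestos lay within the range of tremolite asbestos, and library 2 of riebeckite fragments lay above all tremolite fragment libraries. The other riebeckite libraries lay below the tremolite libraries of their habit. Mx1, an antiviral GTPase, was among the separated falls, at 0.0254 to 0.639 FPKM with riebeckite and 0.643 to 2.37 with tremolite (-0.87, limma adjusted p = 0.000146). Its difference was -0.97 and -0.92 without library 2 of riebeckite asbestos or fragments and -1.02 without both (limma adjusted p = 4.51e-05).

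That count turned on single libraries. It was 23 and 24 without library 2 of riebeckite asbestos or fragments, and 26 without both, a choice made after the data were seen. The median difference of the list was then -0.77, -0.76 and -0.90. It was 5 when library 3 of riebeckite asbestos, of tremolite asbestos or of riebeckite fragments, or library 1 of riebeckite fragments, was left out. It was 6 to 8 without library 1 of riebeckite asbestos, library 2 of tremolite asbestos or library 2 or 3 of tremolite fragments, and 8 both with only the 12 particle libraries in the fit and with sums of transcripts. Why the libraries numbered 2 were the highest of their groups was not tested.

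Called early response and growth factors were mostly lower, and called replication genes were higher with riebeckite. Of 22 immediate early and growth transcription factors 10 were lower, 2 higher and 10 not called (median -0.22, with -0.02 in asbestos and -0.26 in fragments), and 8 were lower in each habit. In each habit 3.45% of all genes tested were lower. Klf2, a factor that restrains inflammatory activation, lay at 2.78 to 4.18 FPKM with riebeckite, 5.62 to 7.71 with tremolite and 13.9 to 14.1 untreated (-0.70 in each habit, limma adjusted p = 1.60e-05 for the mean). Myc, a driver of growth, lay at 11.96 to 14.7, 18.1 to 22.4 and 27.0 to 29.9 FPKM in the same order (-0.50), and Jun, part of AP-1, had -0.33. Of 35 DNA replication genes 13 were higher and 0 lower (37.1% called, median 0.07), and of 30 mitosis genes 2 and 3 (16.7%). Over all genes tested 30.8% were called. Mcm2, part of the replicative helicase, lay at 10.3 to 11.8 FPKM with riebeckite, 8.49 to 9.24 with tremolite and a mean of 11.4 untreated (0.30, limma adjusted p = 2.43e-05), so tremolite was the lower side. Pcna, the replication clamp, lay in the same order (0.17).

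Genes of the stress programmes were called in both directions, and p53 targets were called at a share above the 30.8% of all genes tested. Of 23 genes of the amino acid response 2 were higher and 4 lower (26.1% called), where Asns, the asparagine synthetase, lay at 3.05 to 4.21 FPKM with riebeckite, 5.53 to 6.85 with tremolite and 4.21 to 4.48 untreated (-0.62, limma adjusted p = 3.60e-06). Of 18 unfolded protein response genes 1 was higher and 6 lower (38.9%), and of 24 p53 targets 4 and 8 (50%). Phlda3, a p53 target that restrains AKT, lay at 78.1 to 94.1 against 59.4 to 66.7 FPKM (0.42), and Fas, the death receptor, at 12.04 to 13.5 against 14.6 to 17.3 FPKM (-0.32).

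Transcripts of the mitochondrial genome were lower with riebeckite, chiefly with its asbestos. Of 13 measured all 13 were lower (median -0.21), 1 of them in each habit. Their share of summed FPKM was 6.44% ± 0.419 (SD, n = 3) after riebeckite asbestos against 8.15% ± 0.172 after tremolite asbestos, and 7.91% ± 0.395 after riebeckite fragments against 8.42% ± 0.281 after tremolite fragments. Untreated cells held 8.65% ± 0.181. Asbestos libraries did not overlap (6.08 to 6.90% against 7.99 to 8.33%), whereas fragment libraries did (7.45 to 8.17% against 8.10 to 8.62%). The mean difference was -1.11 percentage points, -1.71 in asbestos and -0.51 in fragments (exact 2-sided permutation test within habit, n = 6 per mineral, p = 0.010, smallest possible 0.005). Of 32 nuclear genes of the respiratory chain 9 were higher and 1 lower, and 1 was called higher in each habit. The share called was 31.2%, near the 30.8% of all genes tested. Cycs, cytochrome c, was among the higher ones, at 43.9 to 48.1 against 38.4 to 43.0 FPKM (0.23). Libraries were made with oligo(dT) selection, on which mitochondrial transcripts with short tails depend, and its part in the share was not tested.

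**Figure D5:**
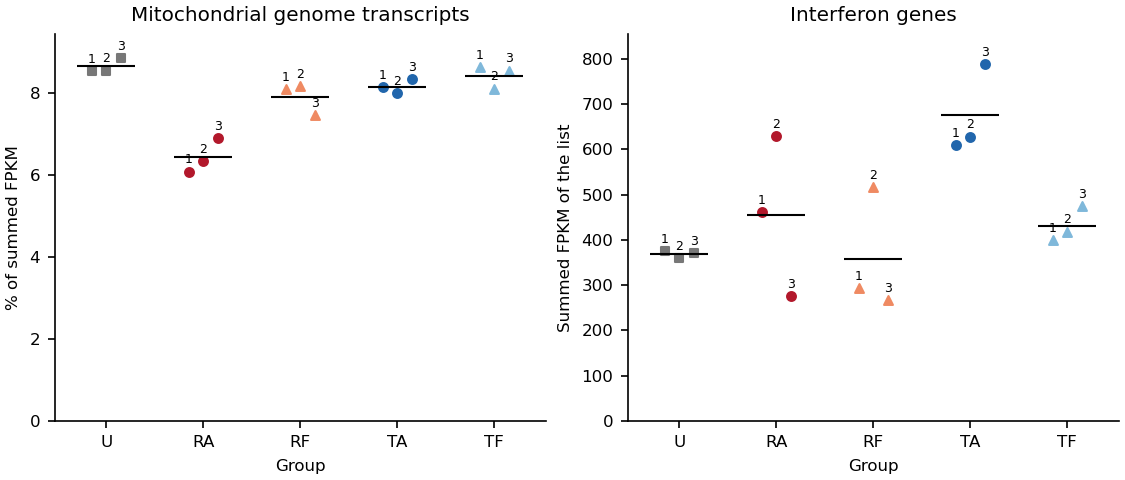
Share of mitochondrial genome transcripts in summed FPKM (left, %) and summed FPKM of the interferon list (right) in each library, by group (U untreated, RA and RF riebeckite asbestos and fragments, TA and TF tremolite asbestos and fragments). Points carry the replicate number and lines are means of 3. The 3 riebeckite asbestos libraries have the lowest mitochondrial share, and libraries numbered 2 are the highest of both riebeckite groups in interferon genes.

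The mineral difference itself depended on habit for 417 genes (3.93%, limma, adjusted p under 0.05), which bounds what the mean over both habits describes. Inhba, the activin A subunit, stood at 31.7, 33.1 and 33.0 FPKM after riebeckite asbestos against 13.8, 17.6 and 14.2 after tremolite asbestos, but at 18.2, 17.0 and 17.4 against 19.8, 19.7 and 17.4 in fragments. Its asbestos libraries were apart and its fragment libraries overlapped. Acod1, which makes itaconate, was at 18.1 to 23.0 against 8.45 to 8.82 FPKM in asbestos and at 5.57 to 5.90 against 4.63 to 5.12 in fragments. Nov, a matricellular protein of the CCN family, was lower with riebeckite in each habit, by more in asbestos (-0.79) than in fragments (-0.15). Tgm2, a protein-crosslinking transglutaminase, differed in asbestos (0.72) and had 0.05 in fragments (limma adjusted p = 0.529). Without any of 6 particle libraries, taken singly, the count of such genes fell more than 1.5 times, to between 210 and 267, and with sums of transcripts it was 197.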

How the data were processed

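RNA of MPI macrophages was profiled 24 h after exposure to particles, in 5 groups of 3 libraries. Per the labels' protocols, oligo(dT) beads selected mRNA, and the second strand was made with dUTP. The build GRCm38 and the tools cutadapt, HISAT2 and StringTie stand in the submitters' processing notes. Not given in the sources used here are their versions, settings and annotation release, and whether counting used strand. The authors deposited FPKM for 10653 genes and 22795 transcripts, all protein-coding entries, which entered unchanged. Each value is relative to the rest of its library. No whole reads could be recovered. At the best read worth tried, at most 36.5% of low values of single-transcript genes lay within 0.1 of whole reads in any library. Evenly spread values give 20% at a fixed worth, and more at the best of many. No count test was therefore run, and no counting interval could be given.

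Groups came from the labels. The 10616 genes that reached 0.5 FPKM in 3 libraries or more entered limma 3.58.1 (R 4.3.3) as log2(FPKM + 1). All 15 libraries were fitted together by group, with 10 residual degrees of freedom, using lmFit, contrasts.fit and trended eBayes. Contrasts were the mean mineral difference, the difference within each habit and the interaction of both. Benjamini-Hochberg adjustment ran over all genes tested, with calls made at an adjusted p under 0.05. The log2(FPKM + 1) scale understates changes of low genes. For the mitochondrial share an exact permutation test within habit was used, 2-sided, over 400 arrangements. Named genes are the 12 largest and 12 smallest mean differences among called genes with 1 sign whose libraries did not overlap within either habit, with at least 1 FPKM in the higher mineral and no predicted or clone symbol, up to 3 members per list with the smallest p, and up to 6 interaction genes. A few genes chosen by this rule are not reported here. The members, the 35 gene lists and the rules were chosen with earlier results of these data known.

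Identifiers matched GENCODE M21 with the same version for 9257 of 10616 genes (87.2%), all at the same position, and symbols matched RefSeq promoters (GRCm38.p6) for 8373. Promoter motifs were searched on both strands. Alternatives were median-ratio rescaling, quantile normalization, a pseudocount of 0.1, no filter, a mean of at least 5 FPKM, a replicate block, only the 12 particle libraries by group or by mineral plus habit, no trend, an absolute difference of at least 1, sums of transcripts, omission of each library and, chosen after the data were seen, omission of both riebeckite libraries numbered 2. The code was tested on simulated data. Plots used matplotlib 3.10.9 in Python 3.11.15.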

Additional observations from a re-analysis of the deposited data

Results flagged for a closer look

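For 32 of 101 named genes the mineral difference itself differed between habits (limma interaction, adjusted p under 0.05), where 3.93% of all genes tested had such a difference. Up to 6 of the named genes were chosen for it, and most others for a large difference or a small p between the minerals. The naming itself therefore favours such genes, and the count is a description that cannot be weighed against the share over all genes. The values here are the asbestos difference minus the fragment difference on the log2 scale, and a value with the sign of the gene's mean difference means that the minerals lay further apart in asbestos. Among the largest separated rises, Slco4a1 had 1.10, Slc6a12 0.74 and Csn2 0.45. Among the largest falls, Clec4a3 had -0.71, Adgre4 -0.64, Ms4a8a -0.60 and Elovl6 -0.51, whereas Tgfbi, with 0.95, lay further apart in fragments. Matrix and growth genes with such a difference were Inhba (1.17), Tgm2 (0.67) and Nov (-0.65).

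Among lipid, metal and oxidant genes it was 0.57 for Hmox1, 0.47 for Slc11a1, 0.40 for Acat2, 0.37 for Gch1, 0.34 for Abca1, 0.24 for Olr1 and -0.18 for Gsr. Among genes of inflammation and antigen presentation it was 1.03 for Cxcl2, 0.93 for Acod1, 0.69 for Tnf, 0.55 for Il1b, 0.42 for Nfkbiz, 0.36 for Cd1d1, 0.19 for Ikbke, -0.30 for Il18, -0.33 for H2-DMa and -0.43 for Txnip. Among genes of energy and lipid metabolism it was 0.41 for Cyc1, 0.37 for Hk2, -0.31 for mt-Co2 and -0.48 for Hacd4. In 4 of the 32 genes, Inhba, Tnf, Nfkbiz and Hacd4, the differences within asbestos and within fragments had opposite signs. The mean over both habits then describes neither.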

How the results depend on the processing

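The counts of genes higher and lower stayed within 1.5 times of 1675 and 1596 under every alternative except an absolute difference of at least 1, which left 16 and 15, with 11 genes called in both habits and 4 with an interaction. With sums of transcripts 488 genes were called in both habits and 197 had an interaction, and without both riebeckite libraries numbered 2 the interaction count was 192. Omission of single libraries gave 1423 to 1671 higher genes, 1330 to 1570 lower, 522 to 757 called in both habits (522 without library 3 of tremolite fragments, under the 788 of all libraries by more than 1.5 times) and 210 to 425 with an interaction, and a mitochondrial difference of -1.2289 to -1.0002 percentage points (exact permutation p between 0.005 and 0.025). The interaction count was 216 without library 1 of riebeckite asbestos, 217 without library 2 of riebeckite fragments, 267 and 214 without libraries 1 and 3 of tremolite asbestos, and 242 and 210 without libraries 1 and 2 of tremolite fragments, each taken singly. The cause was not tested. The interaction is not defined with mineral plus habit as terms, so that alternative was not run for it. Replicate numbers were not treated as pairs: deviations of same-numbered libraries correlated between -0.061 and 0.172, with 3 of 18 pairs over 0.1, although 8 of 12 particle libraries correlated best with one of their own number. With a replicate block the counts were 1722, 1665, 857 and 416. Median-ratio rescaling and quantile normalization gave median differences over all genes of -0.0004 and -0.0044, and 51.4 and 47.8% of calls were higher, against 51.2% as reported. Of 101 named genes 90 held direction and call under each alternative in which they were tested other than the fold threshold, and 21 were not tested with a mean of at least 5 FPKM. Fth1 turned to 0 with quantile normalization and Tnfaip2 to -0.27 with sums of transcripts (limma adjusted p = 0.508). Fth1, Nfkbiz, Tnf, Tnfaip2 and Hist2h2aa1 lost their call without some single libraries, Slc11a1, Ftl1, Slc38a1 and Pdk1 with sums of transcripts, and Inhba and Hacd4 with mineral plus habit. Depth is unknown, so counting error could not be set beside low values such as those of Tarm1, Pla2g2d, Mx1 and Tceal7.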

Other observations

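Antigen presentation genes went both ways between the minerals. Of 16 tested, 3 were higher and 5 lower with riebeckite (50% called, against 30.8% of all genes tested). H2-M2, from the non-classical MHC class I group, stood at 43.6 to 50.8 FPKM after riebeckite asbestos, 16.8 to 19.1 after riebeckite fragments, 24.2 to 29.9 and 10.9 to 12.5 after the tremolite forms and 0.701 to 0.789 untreated. Its mean log2(FPKM + 1) difference, riebeckite minus tremolite, the quantity given for each gene here unless stated, was 0.69 (limma adjusted p = 1.75e-06). Cd1d1, which presents lipids to NKT cells, lay at 19.1 to 22.0 FPKM with riebeckite and 10.7 to 14.8 with tremolite (0.69). H2-DMa, which helps load peptides on MHC class II, lay at 17.1 to 22.7 against 25.1 to 27.1 FPKM (-0.37). Irf4, a factor of dendritic cells and some macrophages, lay at 0.738 to 1.29 against 1.60 to 1.76 FPKM (-0.40).

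In glycolysis 8 of 24 genes were higher and 1 lower (37.5% called, against 30.8% of all genes tested). Aldoc, an aldolase, lay at 62.9 to 67.5 against 51.3 to 56.7 FPKM (0.25, limma adjusted p = 4.87e-06), and Hk2, a hexokinase, was higher in asbestos (28.3 to 30.2 against 21.5 to 23.1 FPKM). Pdk1, a kinase that restrains pyruvate dehydrogenase, was the member that was lower (-0.28). Cyc1, cytochrome c1, had 0.28, whereas mt-Nd3, mt-Co2 and mt-Cytb, subunits encoded in mitochondria, had -0.20, -0.24 and -0.24. Of 18 solute carriers 9 were higher and 3 lower, Slc38a1 (-0.51) and Slc7a5 (-0.35), both importers of amino acids, among the latter. Of 21 scavenger and uptake receptors 8 were higher and 8 lower, of 14 heat shock genes 4 and 2, of 36 cytosolic ribosomal protein genes 3 and 2, and of 7 growth factors and fibrosis mediators 3 and 0, Igf1 with 0.10 among them. Among other macrophage and monocyte markers 3 of 5 were lower and 0 higher, of 4 dendritic cell markers 1 was lower and 1 higher, and of 2 fibroblast, epithelial and endothelial markers 2 were lower and 0 higher.

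Further genes, nearly all of them list members, had mostly small differences. Gla, a lysosomal galactosidase, had 0.26, Gch1, which starts tetrahydrobiopterin synthesis, 0.29, Uhrf1, a factor of DNA methylation upkeep, 0.23, Cebpb, a transcription factor, 0.25, and Btg2, an antiproliferative gene, -0.34. Txnip, which binds thioredoxin, had -0.37. The interferon genes Irf9 and Cxcl10 had -0.44 and -0.57, and -0.58 and -0.64 without both riebeckite libraries numbered 2. Ifit1bl1, also an interferon gene and one of the largest separated falls, had -0.81, and -1.09 without those libraries. Of the NF-kB list Tnfaip2 had 0.24, Ikbke -0.15 and Nfkbiz -0.10. The signs for Nfkbiz were opposite in asbestos and fragments, so its mean describes neither habit. Tnf was lower within fragments only, at 7.38 to 10.3 against 12.4 to 14.96 FPKM (-0.61), with a mean of -0.26. Its difference within asbestos had the opposite sign. Hacd4, an enzyme of fatty acid elongation, had -0.33 in asbestos and 0.14 in fragments.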
